A study of Mus musculus with 42 samples.

Results

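The phototransduction genes examined here are 9 genes through which rods and cones turn light into an electrical signal. They were taken by symbol from the 26653 genes of the deposited comparison of wild-type and *Tug1*-/- tissues. The 5 rod genes are *Gnat1*, *Pde6a*, *Pde6b*, *Cnga1* and *Sag*, and the 4 cone genes are *Opn1sw*, *Opn1mw*, *Arr3* and *Gnat2*. All 9 were found, each in 1 row per tissue, and all were listed in eyes with a completed estimate. Polyadenylated RNA had been sequenced from 42 samples of 7 tissues, 22 wild-type and 20 *Tug1*-/-. Eyes gave 3 wild-type and 3 *Tug1*-/- samples. All samples came from males of the strain Tug1_tm1.1Vlcg on a C57BL/6J (N3, no Neo) background. Both *Tug1* alleles of the knockout are replaced by a *lacZ* reporter, with the promoter and first exon left in place, and the wild-type mice carry a pair of normal alleles and no *lacZ*. The age of the eye donors was not given in the sources used here.

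In the dark, the cation channel of the outer segment is held open by cyclic GMP, and *Cnga1* encodes a rod subunit of it. Light converts an opsin, which in mouse cones is *Opn1sw* (short wavelength) or *Opn1mw* (medium wavelength). The opsin activates transducin, whose alpha subunit is encoded by *Gnat1* in rods and *Gnat2* in cones, and transducin releases the catalytic subunits of the cyclic GMP phosphodiesterase, *Pde6a* and *Pde6b* in rods. Cyclic GMP then drops and the channel closes. Arrestin, *Sag* in rods and *Arr3* in cones, binds the activated, phosphorylated opsin and ends the signal. *Tug1* is a long noncoding RNA that was first picked out in taurine-treated retinal cells, which is why these genes were looked at in its knockout.

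The deposited table gives 1 value for each genotype and tissue, which combines the replicates. Its layout is that of FPKM, fragments per kilobase of transcript and 1000000 fragments, so levels of different genes can be set side by side per length. No value per animal and no count was in it. The depth of the libraries is therefore unknown, no spread between mice can be given, and none of the differences below has a replicate check or a test. The change of a gene was taken as log2((KO + 0.1)/(WT + 0.1)) of the FPKM values, where KO is *Tug1*-/-, which understates changes of genes with low values, and a gene is called past the limit where that ratio exceeded 1.5-fold in either direction. Because a whole eye is a mixed tissue, fewer photoreceptors and less RNA in each photoreceptor cannot be told apart in these values. *Tug1* itself was at 18.4 FPKM in wild-type against 0.183 FPKM in *Tug1*-/- eyes, and *lacZ*, listed as LacZ, was at 0.00894 and 5.98 FPKM, as the genotype labels say. The mitochondrial gene *mt-Co1* was listed at 5628 FPKM in wild-type eyes and at 0 in *Tug1*-/- eyes with a status of too little data, which touches sums over all genes.

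The promoters of 7 of the 9 genes were found in RefSeq on GRCm38.p6, those of *Gnat1* and *Pde6a* were not. Rod and cone genes are known targets of the homeodomain factor CRX, and rod genes also of the leucine zipper factor NRL. The 250 bases before the transcription start are shown for a pair of rod genes, *Sag* and *Pde6b*, and for the cone genes *Opn1sw*, which had the lowest ratio in *Tug1*-/- eyes, and *Arr3*, which held the most copies of the core, read 5′ to 3′ on the strand of the gene. Capitals mark the CRX and OTX2 core TAATC and the NRL half-site TGCTGA, each searched on both strands, so that the reverse strand appears as GATTA and TCAGCA. The stretch of *Sag* is chr1:87803430-87803679 (plus strand), that of *Pde6b* chr5:108388123-108388372 (plus strand), that of *Opn1sw* chr6:29380514-29380763 (minus strand) and that of *Arr3* chrX:100605247-100605496 (plus strand).
Sag: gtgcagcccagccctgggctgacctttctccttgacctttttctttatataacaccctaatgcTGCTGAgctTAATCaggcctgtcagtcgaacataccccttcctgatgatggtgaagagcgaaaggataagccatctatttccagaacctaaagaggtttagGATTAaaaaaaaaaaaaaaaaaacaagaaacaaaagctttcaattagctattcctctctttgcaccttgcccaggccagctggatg
Pde6b: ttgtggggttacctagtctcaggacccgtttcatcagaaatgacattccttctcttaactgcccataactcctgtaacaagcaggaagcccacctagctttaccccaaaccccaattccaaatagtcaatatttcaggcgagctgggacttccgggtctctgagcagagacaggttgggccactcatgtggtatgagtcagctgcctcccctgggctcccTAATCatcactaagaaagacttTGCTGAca
Opn1sw: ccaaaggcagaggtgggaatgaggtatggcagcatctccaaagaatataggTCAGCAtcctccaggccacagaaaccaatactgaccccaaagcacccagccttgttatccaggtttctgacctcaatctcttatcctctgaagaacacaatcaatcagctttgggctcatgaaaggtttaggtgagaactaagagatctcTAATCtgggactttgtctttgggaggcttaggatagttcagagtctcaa
Arr3: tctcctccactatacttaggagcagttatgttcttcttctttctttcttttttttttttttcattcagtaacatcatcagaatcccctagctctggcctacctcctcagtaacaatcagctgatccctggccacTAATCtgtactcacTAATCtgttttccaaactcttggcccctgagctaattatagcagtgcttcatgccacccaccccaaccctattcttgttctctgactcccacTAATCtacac

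The CRX and OTX2 core was present in 6 of the 7 promoters, all but that of *Opn1mw*, while 19.8% of 32851 RefSeq promoters of the same 250 bases hold it. *Arr3* held 3 copies, beginning 116, 102 and 10 bases before its start, and 0.554% of all promoters hold 3 or more. *Sag* held 2 copies, 178 and 86 bases before the start. The single copies lay 49 bases before the start in *Opn1sw*, 30 in *Pde6b*, 18 in *Gnat2* and 228 in *Cnga1*. In GENCODE vM21 all 250 bases before the RefSeq starts of *Gnat2* and *Cnga1* lie in exons of longer transcripts of those genes, so neither stretch is printed. The stretch of *Opn1sw* also lies inside its longer annotated gene, with 0 bases in its exons, while those of *Sag*, *Pde6b* and *Arr3* lie outside theirs. The NRL half-site was in the promoters of *Sag*, *Pde6b* and *Opn1sw*, 3 of 7, against 16.1% of all promoters. These motifs were chosen after the expression values had been seen. The letters are a description of the sequence, and no binding was measured.

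In eyes the rod genes were among the most abundant transcripts. *Gnat1* stood at 2552 FPKM in wild-type eyes, rank 12 of all genes listed, and *Sag* at 1107 FPKM, rank 27. *Pde6b* followed with 370.2 FPKM, *Pde6a* with 328 FPKM and *Cnga1* with 132.7 FPKM. The cone genes lay below every rod gene, in the order *Opn1sw* with 110.0 FPKM, *Arr3* with 83.6 FPKM, *Gnat2* with 65.5 FPKM and *Opn1mw* with 47.3 FPKM. The order of the 9 genes was the same in *Tug1*-/- eyes. With no spread between mice, it cannot be said which neighbours in this order differ. The 5 rod genes summed to 4489 FPKM and the 4 cone genes to 306.3 FPKM in wild-type eyes.

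All 9 genes were lower in *Tug1*-/- than in wild-type eyes, and 0 of 9 were past 1.5-fold, where 3.51% of the 14298 genes with a mean of 1 FPKM or more were past it (124 lower, 378 higher). Being lower at all was common, since 56.5% of those genes were lower by some amount and their median change was -0.02 (log2). Among the 1149 genes with a mean at least that of *Opn1mw*, the lowest of the 9, 40.2% were lower and the median was +0.04. The median change was -0.14 for the 5 rod genes and -0.28 for the 4 cone genes. Measured against the median of the markers of other retinal neurons, a setting chosen after the values were seen, 5 of the 9 were lower, the median of the rod genes was +0.01 and that of the cone genes -0.13. Those markers had a median of -0.15 themselves, so the setting also moved the median of all genes up, by 0.15. Centred instead on the 1149 abundant genes, also a setting chosen after the values were seen, all 9 were lower. The median was then -0.18 for the rod genes and -0.325 for the cone genes.

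**Figure D1:**
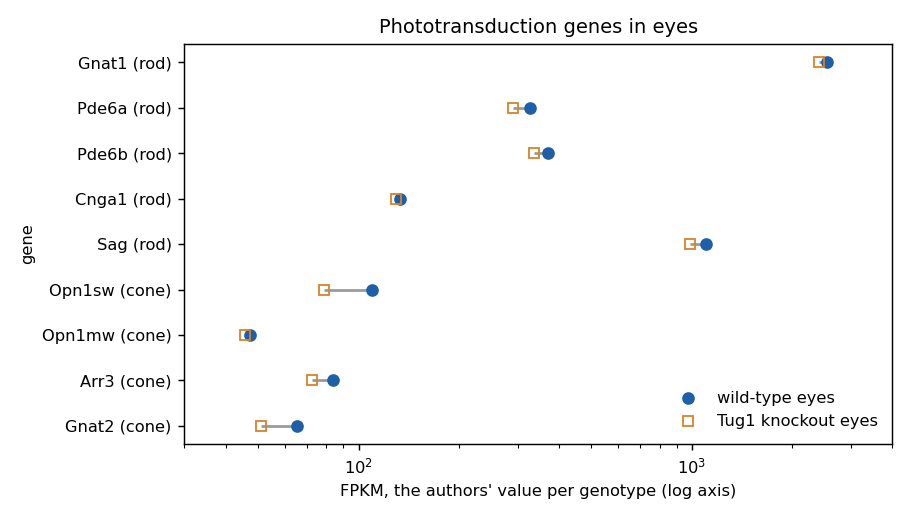
Level of each of the 9 genes in eyes, in FPKM on a logarithmic axis, with 1 value per genotype and no error bar because the table holds none (filled circles wild-type, open squares knockout, a grey line joins the genotypes of a gene). The knockout lies left of the wild-type for every gene, by the widest step for *Opn1sw* and *Gnat2*. Against the markers of other retinal neurons, 4 of the 9 (*Gnat1*, *Pde6b*, *Cnga1* and *Opn1mw*) would lie to the right.

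Among the rod genes the differences were small. *Gnat1*, the transducin alpha subunit of rods, was at 2552 FPKM in wild-type against 2414 FPKM in *Tug1*-/- eyes, 5.39% lower (log2 -0.08). *Pde6a* was at 328 and 291.3 FPKM, 11.2% lower (log2 -0.17). *Pde6b* was at 370.2 and 336.3 FPKM, 9.16% lower (log2 -0.14). These encode both catalytic subunits of the rod phosphodiesterase, and their ratio, *Pde6b* over *Pde6a*, was 1.13 in wild-type and 1.15 in *Tug1*-/- eyes. *Cnga1*, the channel subunit, was at 132.7 and 129.6 FPKM, 2.30% lower (log2 -0.03). *Sag*, the rod arrestin, was at 1107 and 988 FPKM, 10.7% lower (log2 -0.16). The 5 changes spanned -0.17 to -0.03, a narrower range than that of the cone genes, and relative to the other retinal neuron markers *Gnat1* (+0.07), *Pde6b* (+0.01) and *Cnga1* (+0.12) were on the other side of 0.

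The cone genes spread more widely. *Opn1sw*, the short-wavelength opsin, was at 110.0 FPKM in wild-type against 79.0 FPKM in *Tug1*-/- eyes, 28.1% lower (log2 -0.48). Of the 14298 genes, 1.52% had a change as low or lower. *Gnat2*, the cone transducin alpha subunit, was at 65.5 and 51.1 FPKM, 21.9% lower (log2 -0.36), and 2.98% of genes were as low or lower. *Arr3*, the cone arrestin, was at 83.6 and 72.5 FPKM, 13.3% lower (log2 -0.21), with 12.0% of genes as low or lower. *Opn1mw*, the medium-wavelength opsin, was at 47.3 and 45.7 FPKM, 3.40% lower (log2 -0.05), and at +0.10 relative to the other retinal neuron markers. *Opn1sw* and *Gnat2* were thus further from 0 than *Opn1mw* within the cone group, and whether by more than the spread between mice cannot be said.

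**Figure D2:**
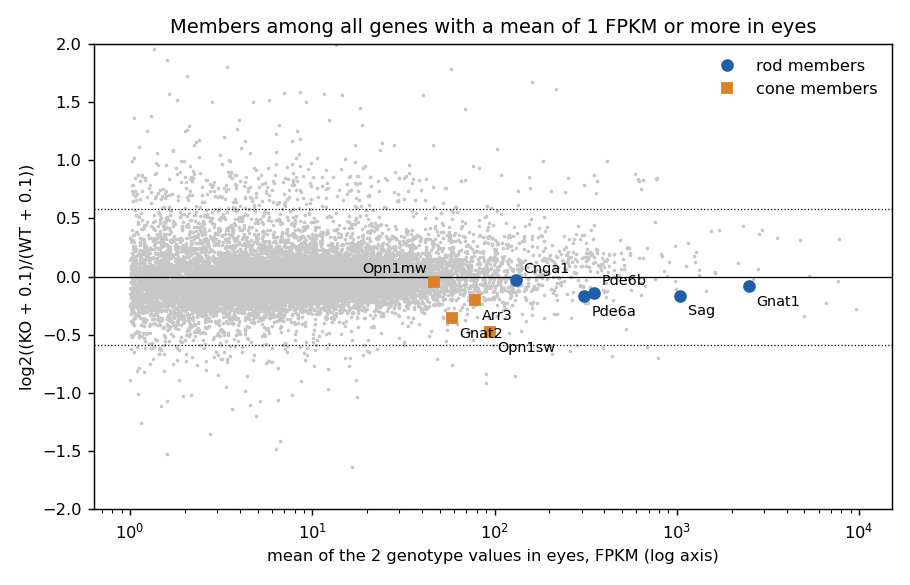
Change in *Tug1*-/- eyes (log2, vertical axis) against the mean FPKM of both genotypes (logarithmic axis) for the 14298 genes with a mean of 1 FPKM or more, with the rod genes as circles and the cone genes as squares. The dotted lines mark 1.5-fold and 20 genes lie outside the vertical axis. The 9 genes lie between -0.48 (*Opn1sw*) and -0.03 (*Cnga1*), inside the dotted lines, and 4 of them would be above 0 if centred on the markers of other retinal neurons.

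Ratios between the combined values of members within a genotype do not depend on how the genotypes are scaled to each other. *Opn1sw* over *Opn1mw*, the balance of the cone opsins, was 2.32 in wild-type and 1.73 in *Tug1*-/- eyes. *Gnat1* over *Gnat2*, rod over cone transducin, was 39.0 and 47.3. *Sag* over *Arr3*, the pair of arrestins, was 13.2 and 13.6. In *Tug1*-/- eyes, *Gnat1* over *Gnat2* was thus 1.21 times its wild-type value and *Sag* over *Arr3* 1.03 times. The summed rod genes over the summed cone genes gave 14.7 in wild-type and 16.8 in *Tug1*-/- eyes, with 4160 FPKM of rod genes and 248.3 FPKM of cone genes in the latter. These pairs were picked after the values had been seen.

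The exons of *Opn1sw* share 397 bases with *Calu*, a gene on the opposite strand, in GENCODE vM21, and the library kit does not keep the strand, so reads of that stretch could be counted to either gene. *Calu* was at 48.1 FPKM in wild-type against 50.1 FPKM in *Tug1*-/- eyes, that is, not lower, while *Opn1sw* was lower. In wild-type mouse embryonic fibroblasts, where *Calu* was at 527 FPKM, *Opn1sw* was at 0.0982 FPKM. The part of shared reads in the *Opn1sw* value in eyes was not tested. The other 8 members share 0 exonic bases with another annotated gene. On GRCm38 the rod genes lie on chromosome 9 (*Gnat1*, ENSMUSG00000034837.7, 107674474 to 107679712, minus strand), chromosome 18 (*Pde6a*, ENSMUSG00000024575.9, 61220315 to 61289924, plus strand), chromosome 5 (*Pde6b*, ENSMUSG00000029491.7, 108388391 to 108432397, plus strand, and *Cnga1*, ENSMUSG00000067220.6, 72603696 to 72644275, minus strand) and chromosome 1 (*Sag*, ENSMUSG00000056055.7, 87803680 to 87845158, plus strand). The cone genes lie on chromosome 6 (*Opn1sw*, ENSMUSG00000058831.7, 29376671 to 29388468, minus strand), chromosome X (*Opn1mw*, ENSMUSG00000031394.5, 74127464 to 74150760, plus strand, and *Arr3*, ENSMUSG00000060890.5, 100605497 to 100618493, plus strand) and chromosome 3 (*Gnat2*, ENSMUSG00000009108.9, 108092789 to 108101432, plus strand).

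The remaining genes of the cascade were read from lists of 6 other rod genes, 7 other cone genes and 10 genes used by both cell types. Of these 23, 18 were lower and 5 higher in *Tug1*-/- eyes with 0 past 1.5-fold, and their median was -0.11, which became +0.05 relative to the other retinal neuron markers. The other rod genes had a median of -0.06, with 5 of 6 lower. The lowest was *Gnb1*, the transducin beta subunit of rods, at 1507 and 1384 FPKM (log2 -0.12). The highest was *Gngt1*, the rod transducin gamma subunit, at 444.4 and 462.1 FPKM (log2 +0.06).

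The other cone genes had a median of -0.20, with 5 of 7 lower. *Pde6c*, the catalytic subunit of the cone phosphodiesterase, was the lowest at 16.9 FPKM in wild-type against 12.0 FPKM in *Tug1*-/- eyes (log2 -0.49), next to *Opn1sw* in size. *Pde6h*, the inhibitory subunit of the same enzyme, was the highest at 8.81 and 9.95 FPKM (log2 +0.17). *Pde6b* over *Pde6c*, rod over cone catalytic subunit, was 21.9 in wild-type and 28.1 in *Tug1*-/- eyes. The genes shared by rods and cones had a median of -0.12, with 8 of 10 lower, from *Gucy2f*, a retinal guanylate cyclase, at 21.3 and 18.3 FPKM (log2 -0.22) to *Guca1a*, a guanylate cyclase activating protein, at 378.5 and 392.7 FPKM (log2 +0.05).

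Genes that build or instruct photoreceptors had values of the same order as the rod members. Of 7 photoreceptor transcription factors 6 were lower, with a median of -0.09, from *Crx* at 184.8 and 157.6 FPKM (log2 -0.23) to *Rxrg*, a nuclear receptor of cones, at 5.23 and 6.27 FPKM (log2 +0.26). All 12 outer segment and matrix genes were lower, with a median of -0.13, and the lowest was *Abca4*, the retinoid transporter of the discs, at 175.3 and 145.3 FPKM (log2 -0.27). None of the 19 was past 1.5-fold, and relative to the other retinal neuron markers their joint median of -0.11 became +0.04.

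Markers of the other cells of the eye were read beside the 9 genes, to see what else differed between the samples. Bipolar, amacrine, horizontal and ganglion cell markers together had a median of -0.15, with 23 of 27 lower and summed levels of 744.8 FPKM in wild-type against 677.3 FPKM in *Tug1*-/- eyes. In these lists the amacrine markers had 7 of 7 lower with a median of -0.22, from *Tfap2b* (log2 -0.29) to *Calb2* (log2 -0.12). The bipolar markers had 7 of 8 lower with a median of -0.19, from *Isl1* (log2 -0.54) to *Prkca* (log2 +0.01). The ganglion cell markers had 6 of 8 lower with a median of -0.08, from *Pou4f2* (log2 -0.28) to *Sncg* (log2 +0.09). The 4 horizontal cell markers had a median of -0.12, with changes of -0.22 to +0.02, and only *Calb1* (log2 -0.21) had a mean of 1 FPKM or more. The median of the rod members thus lay inside the range of the other neurons' lists, and that of the 4 cone members below it. All 11 cone genes, members and others together, had a median of -0.21, inside that range. The 7 Muller glia markers summed to 2326 and 2478 FPKM with a median of +0.06, from *Rlbp1* (log2 -0.03) to *Vim* (log2 +0.18). The 10 markers of the pigment epithelium, which recycles retinoid for the opsins, summed to 1053 and 1083 FPKM with a median of +0.05, or -0.01 when scaled to 1000000 summed FPKM without *mt-Co1*. The 9 of them with a mean of 1 FPKM or more ran from *Pmel* (log2 -0.12) to *Lrat* (log2 +0.22), and *Best1*, at 0.422 and 0.548 FPKM, was at +0.31.

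Outside the retina larger differences accompanied those of the 9 genes. All 6 skeletal muscle markers were past 1.5-fold higher in *Tug1*-/- eyes, summed 1694 FPKM in wild-type against 3092 FPKM in *Tug1*-/-, and ran from *Myh4* (log2 +0.77) to *Acta1* (log2 +0.996). All 5 blood markers found, of 7 listed, were past 1.5-fold higher, summed 183.7 and 537.4 FPKM, and ran from *Hba-a2* (log2 +0.84) to *Hbb-bt* (log2 +1.78). Of 6 cornea markers 3 were past 1.5-fold lower, with summed levels of 1448 and 964 FPKM, from *Aldh3a1* (log2 -0.68) to *Krt14* (log2 +0.22). The 16 lens markers summed to 25652 and 25288 FPKM with a median of +0.01, which was -0.03 to -0.05 under other scalings, and 1 was past 1.5-fold, *Crygb* (log2 -0.70), at the other end from *Cryab* (log2 +0.18). No defining marker of these lists was at 0 in either genotype. The part of these other tissues in the lower values of the 9 genes was not tested.

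**Figure D3:**
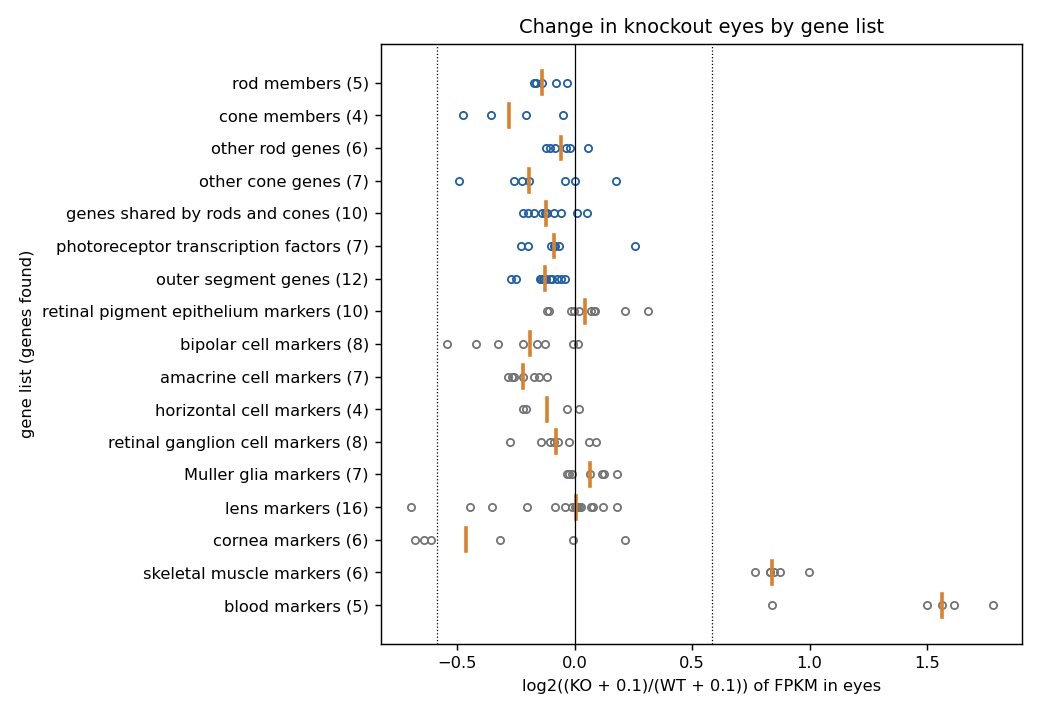
Change of every gene of each list in *Tug1*-/- eyes (log2 ratio of FPKM, horizontal axis), 1 open circle a gene, with the median as an orange bar, 0 as a solid line and 1.5-fold as dotted lines. Photoreceptor lists are blue and other cell types grey. The photoreceptor medians lie between -0.28 (cone members) and -0.06 (other rod genes) beside -0.22 for amacrine markers, and the skeletal muscle (+0.84) and blood (+1.56) markers lie apart to the right. Centred on the other retinal neuron markers, the median of the rod members would be +0.01.

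Across tissues, all 9 genes were highest in eyes in both genotypes. Of 108 values in the 6 other tissues, 96 were below 1 FPKM and 18 were listed at 0. Because the FPKM values of a tissue sum to different totals, eyes were set against the next tissue per 1000000 of summed FPKM in the wild-type. On that scale *Gnat2* was the least restricted member, 36.5-fold higher in eyes than in prostate. *Opn1sw* followed with 128-fold over prostate, *Cnga1* with 204-fold over testes, *Sag* with 209-fold over testes and *Gnat1* with 847-fold over liver. *Pde6a* was 2120-fold over testes, *Arr3* 2200-fold over testes, *Opn1mw* 3010-fold over spleen and *Pde6b* 11000-fold over spleen. The last 4 had less than 1 FPKM in each of the 12 other groups, so these folds rest on very low values.

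Low levels outside the eye were compared between genotypes where the mean was 0.5 FPKM or more, which held for 10 of 54 pairs of a member and a tissue. Of these 10, 2 were past 1.5-fold, both of *Cnga1*. In testes (4 wild-type, 3 *Tug1*-/- samples) *Cnga1* was at 1.26 FPKM in wild-type against 0.171 FPKM in *Tug1*-/- (log2 -2.32), 1 of 3 members compared there, where 2.81% of all genes were past the limit. In spleen (3 and 3 samples) *Cnga1* was at 0.538 and 1.45 FPKM (log2 +1.28), 1 of 2 members compared, with a background of 6.57%. The direction of *Cnga1* was thus opposite in these tissues, at levels near 1 FPKM, and the difference was not tested. In eyes the same gene differed by -0.03.

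The other members outside the eye stayed inside the limit. In testes *Sag* was at 10.2 FPKM in the wild-type against 7.50 FPKM in the knockout (log2 -0.44). It was at 0.906 and 0.701 FPKM in spleen (log2 -0.33) and at 0.531 and 0.558 FPKM in prostate (log2 +0.06). In liver (3 and 3 samples) *Gnat1* was at 8.96 and 10.2 FPKM (log2 +0.18) and *Gnat2* at 2.00 and 1.92 FPKM (log2 -0.06), 0 of 2 past 1.5-fold beside 5.77% of all genes. In prostate (3 and 2 samples) *Gnat2* was at 2.88 and 3.15 FPKM (log2 +0.13) and *Opn1sw* at 1.38 and 1.30 FPKM (log2 -0.08), 0 of 3 past the limit beside 4.11% of all genes. *Gnat2* in testes was at 0.623 and 0.555 FPKM (log2 -0.14). *Opn1sw* in prostate, too, stands beside *Calu*, which was at 87.4 and 86.4 FPKM there. In wild-type heart *Calu* was at 145.7 FPKM and *Opn1sw* at 0.0774 FPKM. The share of *Calu* reads in the *Opn1sw* value of prostate was not tested. In heart and mouse embryonic fibroblasts, 3 and 3 samples each, every member was below 0.5 FPKM.

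**Figure D4:**
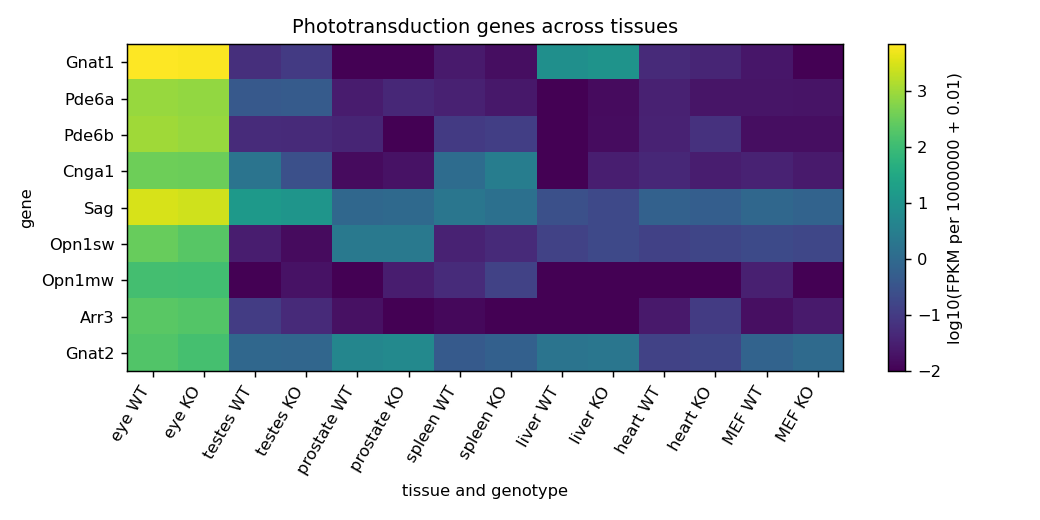
Level of the 9 genes in the 7 tissues and both genotypes (WT and KO), as log10 of FPKM per 1000000 of the summed FPKM plus 0.01, with dark cells for values at or near 0 (MEF, mouse embryonic fibroblasts). The eye columns are bright for every gene, and the brightest cells outside are *Sag* in testes (10.2 FPKM in wild-type) and *Gnat1* in liver (8.96 FPKM).

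Genes with a pattern like that of the members were sought over the 14 values of tissue and genotype, on log2(FPKM + 0.1), among genes with a mean in eyes of at least 10 FPKM for the rod genes and at least 1 FPKM for the cone genes. Each tissue is represented by both genotypes, so the 14 values are not independent, and the correlation mainly separates eyes from the rest. Most like the mean of the rod genes were *Cacna1f* (r = 0.996), *Crygs* (r = 0.996), *Impg1* (r = 0.995), *Gm514* (r = 0.995) and *Nrl* (r = 0.994), among 6233 genes of which 142 had r over 0.95. *Cacna1f*, the calcium channel of the photoreceptor synapse, was at 39.3 FPKM in wild-type against 29.9 FPKM in *Tug1*-/- eyes (log2 -0.39), and *Crygs* is a lens crystallin. Most like the mean of the cone genes were *2310007B03Rik* (r = 0.994), *Psapl1* (r = 0.994), *Sptssb* (r = 0.993), *Tprg* (r = 0.992) and *Sst* (r = 0.992), among 14289 genes of which 271 had r over 0.95. Their levels in wild-type eyes ran from 2.10 FPKM (*Sptssb*) to 8.18 FPKM (*2310007B03Rik*), levels that the lower minimum of the cone search lets in, and their changes from -0.79 (*2310007B03Rik*) to +0.46 (*Sptssb*).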

How the data were processed

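Tissues had been snap-frozen and polyadenylated RNA sequenced from TruSeq RNA Sample Preparation Kit v2 libraries, which do not keep the strand. The submitters' processing notes name CASAVA 1.8.2, TopHat2, Cuffdiff and mm10, while the study's methods describe another route through STAR, featureCounts and DESeq2. The authors' deposited table holds 1 value per genotype and tissue in FPKM, a unit taken from its layout and not named in its header. It also holds the authors' fold change, test statistic, p-value and significance columns, which were not used. Of its 8 tissues, 7 were used, and brain was not used here.

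The change was log2((KO + 0.1)/(WT + 0.1)), called past 1.5-fold among genes with a mean of 1 FPKM or more in eyes and 0.5 FPKM or more elsewhere. Alternatives were pseudocounts of 1 and 0.01, a 2-fold limit, no filter on low values, scaling to 1000000 of summed FPKM with or without lens markers, and centring on the median of all genes. Added after the values were seen were scaling without *mt-Co1* and centring on other retinal neuron markers or on genes at least as abundant as the lowest member. The members and lists were chosen with earlier results of these data known. Named beside the members were the highest and lowest gene of each list among those with a mean of 1 FPKM or more in eyes and the 5 genes most like the rod and the cone members, plus *Calu*, *mt-Co1* and *Best1*, chosen after their values were seen. For 1 list the gene at 1 end is not reported here. Fold changes planted without noise in abundant genes of wild-type eyes were returned by the ratio and the count past the limit, as the formula requires. The other steps had no such check. Positions come from GENCODE vM21 (GRCm38) and promoters from RefSeq (GRCm38.p6). Python 3.11.15, numpy 2.4.6, pandas 2.3.3 and matplotlib 3.10.9 were used.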

Additional observations from a re-analysis of the deposited data

How the results depend on the processing

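No paired analysis was possible because values per sample were not in the table, and for the same reason no replicate could be left out. Under pseudocounts of 1 and 0.01, scaling to 1000000 summed FPKM with or without lens markers or *mt-Co1*, and centring on all genes or on genes at or above the lowest member, all 9 members stayed lower in *Tug1*-/- eyes, with *Cnga1* nearest to 0 at -0.09 to -0.0093, and 0 were past 1.5-fold. Centring on the other retinal neuron markers, which moved the median of all genes by 0.15, left 5 of 9 lower. It gave medians of +0.013 for the rod genes, -0.13 for the cone genes, +0.046 for the other phototransduction genes and +0.044 for the transcription factor and outer segment genes. The median of the lens markers was -0.025 when so scaled, -0.029 without lens markers in the sum, -0.047 without *mt-Co1* and -0.038 centred on abundant genes, and that of the pigment epithelium -0.0084 without *mt-Co1*. The bipolar markers had 1 gene past 1.5-fold without *mt-Co1* and 1 when centred on abundant genes, in place of 0. With a limit of 2-fold, 0 lens, 0 cornea and 0 skeletal muscle markers were past it, and 100 of all genes. With no filter on low values 1022 of all genes were past 1.5-fold. *Tug1* was at -4.04 with a pseudocount of 1 and -6.58 with 0.01, against -6.03. These moves follow from the settings by construction. Centring shifts every gene by 1 constant, and scaling divides each genotype by 1 total. The limit, the filter and the pseudocount change the rule itself. Why the values differ between the genotypes was not tested. The depth is unknown, so what it limits cannot be stated.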
